A study of Mus musculus with 14 samples.

Results

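The 33 genes described here encode enzymes that make purine and pyrimidine nucleotides, recycle them, or turn them into the building blocks of DNA. They were chosen by name from 27343 gene names on an Agilent mouse expression array, 13 for purine synthesis from the start, 2 for its one-carbon supply, 3 for purine salvage and a nucleotide kinase, 5 for pyrimidine synthesis from the start, 1 for pyrimidine salvage, 2 nucleoside diphosphate kinases and 7 for deoxynucleotides. All 33 were well above background on all 14 arrays and were among the 17720 genes that passed the filter on dim probes. The arrays measured total RNA of Rheb1-/- myeloid progenitors, wild-type myeloid progenitors, Rheb1-/- myeloid cells and wild-type myeloid cells, 3 samples each, and of hematopoietic stem cells, 1 Rheb1-/- and 1 wild-type sample. The Rheb1-/- mice carried floxed Rheb1 alleles and Vav1-cre, which is active throughout the blood system, stem cells included; the labels name the other mice wild type and give no strain, age, sex or surface gate. The product of Rheb1, listed on the array as Rheb, is a small GTPase and the direct activator of mTORC1, and the series title names macrophage differentiation and phagocytosis as the question.

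A purine ring is assembled on phosphoribosyl pyrophosphate, step by step, with carbon atoms from folate carriers, whereas a pyrimidine ring is closed first and then joined to that sugar. Cells that divide need both routes to copy their DNA and RNA, and ribonucleotide reductase and thymidylate synthase then make the deoxynucleotides. mTORC1 is known from other mammalian cells to promote pyrimidine synthesis through phosphorylation of the Cad protein by S6 kinase, and purine synthesis through ATF4 and the mitochondrial folate enzyme MTHFD2. The transcription factors Myc and E2F are known activators of many of these genes in proliferating cells.

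Levels are given as log2 of the processed signal relative to the array's 75th percentile, which is 0, and differences are on the same log2 scale with Benjamini-Hochberg adjusted p-values from limma over 17720 genes. Levels of different genes come from different probes and are not set against each other. Between 58.5% and 67.6% of spots were well above background, no spot was saturated, replicates correlated across genes at 0.980 to 0.987, and few arrays limit the precision. The labels tie no sample to an animal, so the spread behind the p-values may in part be technical. The arrays lay on 4 slides. The Rheb1-/- myeloid arrays shared slide 4 with Rheb1-/- progenitor array 3, and the wild-type myeloid arrays shared slide 1 with the Rheb1-/- stem cell array, so in myeloid cells, as in stem cells, genotype and slide cannot be told apart. Slide 3 held Rheb1-/- progenitor arrays 1 and 2 and wild-type progenitor arrays 2 and 3. Rheb itself stood at 3.26, 2.65 and 2.60 in Rheb1-/- progenitors and at 3.94, 4.04 and 3.78 in wild-type progenitors, a difference of -1.08 (adjusted p = 0.0939), and was lower by -0.89 in Rheb1-/- myeloid cells than in wild-type myeloid cells (adjusted p = 0.0116). In stem cells it stood at 2.26 in the Rheb1-/- and 3.46 in the wild-type array, and where its probe lies relative to the deleted part was not analysed here.

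RefSeq promoter windows of 300 bases, 250 before and 50 after the annotated start in build GRCm38.p6, were matched for 31 of the 33 genes, leaving Dhodh and Pfas without one. They are shown for 4 genes that rose in Rheb1-/- myeloid cells: Ppat and Paics, which catalyse steps of purine synthesis and are neighbours on opposite strands of chromosome 5, and Impdh2 and Dtymk, whose windows hold the E-box CACGTG bound by Myc. Capitals mark every match to the E-box, to one of 3 words of the E2F type (TTTGGCG, its variant TTTCGCG, and the related word TTCCCGC), or to the ATF4 core TGATGCA, each searched on both strands.
Ppat, chr5:76951529-76951828, minus strand: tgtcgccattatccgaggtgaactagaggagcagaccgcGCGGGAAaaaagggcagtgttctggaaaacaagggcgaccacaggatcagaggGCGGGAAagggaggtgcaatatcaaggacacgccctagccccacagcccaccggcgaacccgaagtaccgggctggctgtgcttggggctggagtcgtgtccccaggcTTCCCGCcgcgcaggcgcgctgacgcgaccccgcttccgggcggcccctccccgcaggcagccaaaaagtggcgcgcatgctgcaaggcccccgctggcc
Paics, chr5:76951052-76951351, plus strand: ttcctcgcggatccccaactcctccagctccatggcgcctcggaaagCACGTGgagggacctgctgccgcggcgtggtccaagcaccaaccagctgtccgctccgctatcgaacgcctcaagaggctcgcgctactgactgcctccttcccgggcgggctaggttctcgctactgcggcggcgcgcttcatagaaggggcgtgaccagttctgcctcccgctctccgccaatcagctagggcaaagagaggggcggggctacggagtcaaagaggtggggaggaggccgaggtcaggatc
Impdh2, chr9:108560186-108560485, plus strand: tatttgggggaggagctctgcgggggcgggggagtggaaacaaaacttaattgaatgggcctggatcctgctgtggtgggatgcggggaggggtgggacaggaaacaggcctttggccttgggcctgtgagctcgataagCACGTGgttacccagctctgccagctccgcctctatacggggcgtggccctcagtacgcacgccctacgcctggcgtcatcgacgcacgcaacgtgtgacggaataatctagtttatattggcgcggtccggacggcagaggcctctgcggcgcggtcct
Dtymk, chr1:93801885-93802184, minus strand: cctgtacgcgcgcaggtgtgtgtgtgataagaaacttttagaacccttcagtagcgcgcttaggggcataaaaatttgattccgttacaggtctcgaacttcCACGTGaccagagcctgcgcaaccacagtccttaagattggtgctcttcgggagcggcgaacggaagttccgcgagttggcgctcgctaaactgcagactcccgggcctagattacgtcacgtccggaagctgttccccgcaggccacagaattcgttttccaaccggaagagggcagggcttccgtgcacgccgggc
The Ppat window held TTCCCGC 3 times, and the windows of Paics, Impdh2 and Dtymk held the E-box once each. CACGTG occurred in 7 of 38 windows of these genes (18.4%), those of Atic, Dtymk, Impdh2, Nme1, Paics and Tyms, and in 7.15% of 32851 windows of all genes. TTCCCGC occurred in 5 windows (13.2%; Mthfd1, Ppat, Prps1, Prps2 and Rrm1), against 4.6% of all windows, and TGATGCA in 1 (2.63%; Guk1), against 3.15%. Of the other words TTTGGCG, in 1.56% of all windows, occurred in 0 windows of these genes, as did TTTCGCG, in 0.849% of all windows. Any of these words occurred in 13 of the 38 windows (34.2%), belonging to 12 of the 31 matched genes, against 16.1% of all windows. The windows of Cad, Ctps, Uck2, Shmt1 and Rrm2, which also rose in Rheb1-/- myeloid cells, held 0 matches. The matches describe letters in the window and not binding.

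In myeloid progenitors none of the 33 genes passed the test for genotype, against 0.0734% of all genes tested (13 of 17720), and 0 of 33 had an unadjusted p under 0.05, against 12.1% of all genes; the count was 0 under every alternative analysis. Their differences lay between -0.16 for Impdh1 and 0.23 for Impdh2, with a median of 0.02 beside 0.02 for all genes. Impdh1 and Impdh2 encode isozymes of IMP dehydrogenase, the entry to guanine nucleotides. Impdh1 read 3.85, 4.01 and 3.84 in Rheb1-/- progenitors and 4.06, 4.08 and 4.06 in wild-type progenitors, a difference of -0.16 (95% interval -0.39 to 0.06, adjusted p = 0.558). Ctps, the CTP synthase, read 3.84, 3.9998 and 3.84 against 3.65, 3.85 and 3.74 in wild-type progenitors, a difference of 0.15 (95% interval -0.08 to 0.37, adjusted p = 0.608). Impdh2 read 4.54, 4.59 and 4.49 in Rheb1-/- progenitors, against 4.26, 4.49 and 4.19 in wild-type progenitors, a difference of 0.23 (95% interval -0.12 to 0.58, adjusted p = 0.616). These were the 3 genes of smallest p. The replicate arrays of Impdh1 and of Impdh2 did not overlap between genotypes, although neither passed, and in all 2 genes lay higher (Impdh2 and Paics) and 3 lower (Impdh1, Ctps2 and Tk1) without overlap, beside 11% and 8.97% of all genes. The 95% interval of the progenitor difference was -0.23 to 0.22 for Cad, -0.10 to 0.24 for Ppat and -0.21 to 0.25 for Uck2. Within slide 3 alone the median difference of the 33 genes was 0.03. Of the markers of other cell types, the 9 of megakaryocytes had lower summed levels in Rheb1-/- progenitors (7.21 to 15.6, linear scale, 75th percentile as unit) than in wild-type progenitors (30.6 to 48.8), although none passed (9 of 9 were lower at an unadjusted p under 0.05); stem cell markers (7.76 to 9.30 in Rheb1-/-, 9.77 to 11.7 in wild type) and stroma and endothelium markers (0.58 to 0.90 in Rheb1-/-, 0.97 to 1.48 in wild type) were also lower without overlap and not called. Their part in any value above was not tested.

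In myeloid cells 25 of the 33 genes were higher in Rheb1-/- than in wild-type samples and none was lower by the limma test. By the same adjusted threshold 16.5% of all genes tested were higher and 17.7% lower. At an unadjusted p under 0.05, a looser threshold for which no share of all genes is given here, 1 of the 33 was lower, Adss. By step, 10 of 13 genes of purine synthesis, both one-carbon genes, 4 of 5 genes of pyrimidine synthesis, the salvage kinase Uck2, both nucleoside diphosphate kinases and 6 of 7 deoxynucleotide genes rose. None of the 3 genes Hprt, Aprt and Guk1 passed, although Hprt did under some alternatives. The median difference of the 33 was 0.63, beside -0.08 for all genes tested, and the replicates of 28 genes lay higher and of 2 genes lower without overlap, beside 21% and 29% of all genes. The calls of Cad, Umps, Ctps, Uck2, Ppat, Paics, Pfas, Impdh1, Impdh2, Prps1, Mthfd1, Shmt1, Nme1, Nme2, Tyms, Rrm2, Tk1, Dut and Dtymk, 19 genes, held in all 22 alternative analyses, and those of Adsl, Atic, Dhodh, Gart, Prps2 and Rrm1 did not. Without wild-type myeloid array 3 the count was 20. Because bulk RNA was measured, a different share of a cell type and a different RNA content per cell cannot be told apart.

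**Figure D1:**
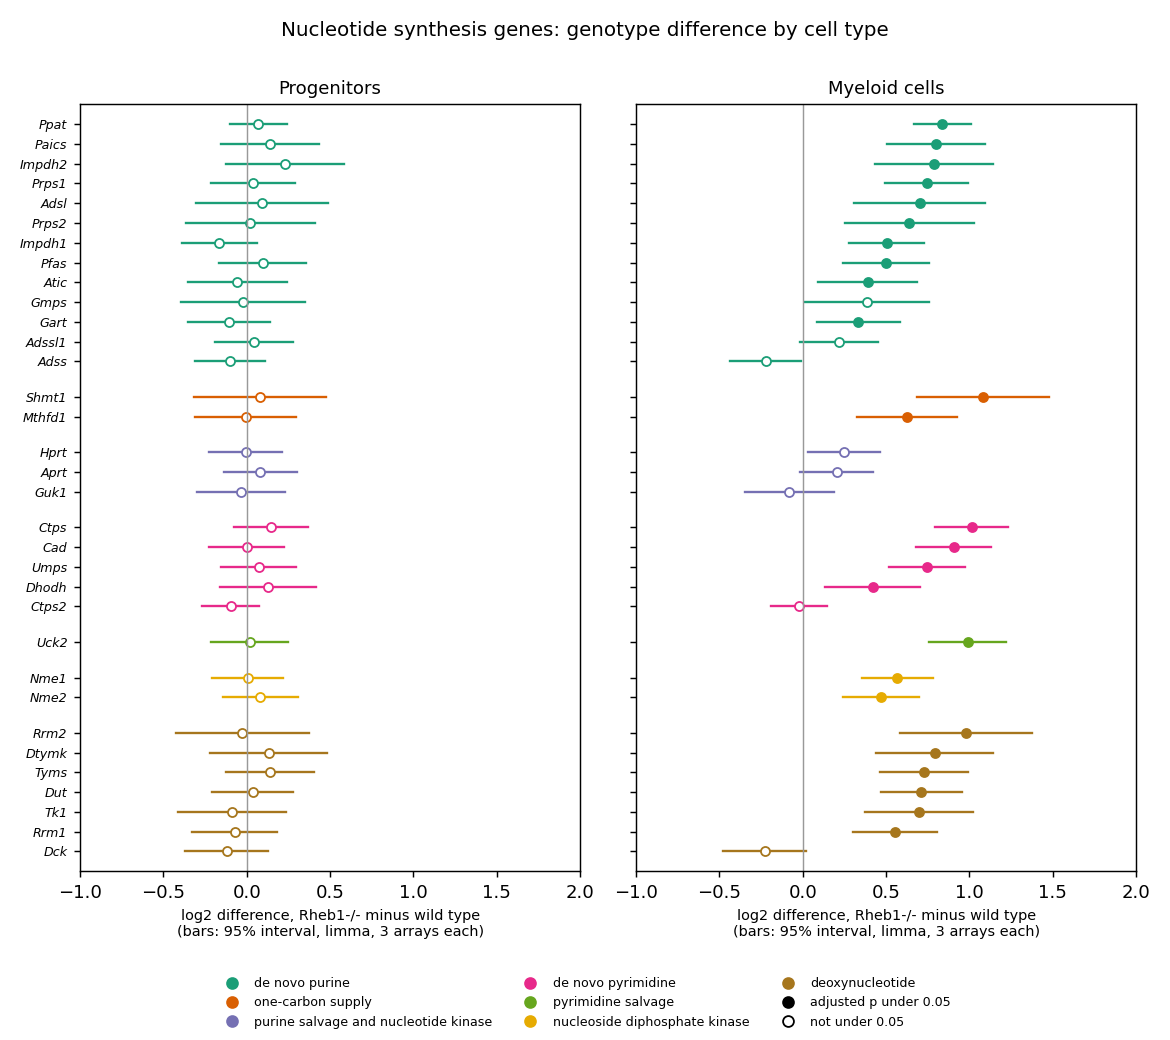
Log2 difference between Rheb1-/- and wild-type samples for each of the 33 genes in progenitors (left) and myeloid cells (right), by synthesis step, with 95% intervals from limma (3 arrays per group); filled points have an adjusted p under 0.05. In progenitors all points lie between -0.16 and 0.23 and none is filled, whereas in myeloid cells 25 are filled, all to the right of 0.

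Purine synthesis was led by Ppat, the amidotransferase of the committed step, whose probe lies at chr5:77342626-77342685 in mm9. Its level was -0.34, -0.43 and -0.45 in Rheb1-/- myeloid cells and -1.23, -1.29 and -1.21 in wild-type myeloid cells, without overlap. The difference was 0.84 on the log2 scale (SE 0.077, adjusted p = 0.00021), or 1.79-fold, the smallest p of the 33. Its neighbour Paics, which carries out a carboxylation and the next ligation, read 3.11, 3.40 and 3.20 against 2.71, 2.43 and 2.17 in wild-type myeloid cells. Paics thus rose by 0.80 on the log2 scale (SE 0.13, adjusted p = 0.00188), and every Rheb1-/- array lay above every wild-type array. Prps1, which makes phosphoribosyl pyrophosphate for both rings, read 1.96, 2.22 and 2.34 in Rheb1-/- myeloid cells and 1.55, 1.47 and 1.27 in wild-type myeloid cells. Prps1 rose by 0.74 on the log2 scale (SE 0.11, adjusted p = 0.00119), and its isozyme Prps2, at -1.51, -1.70 and -1.26 in Rheb1-/- against -1.82, -2.16 and -2.40 in wild-type myeloid cells, by 0.64 on the log2 scale (SE 0.17, adjusted p = 0.0182). Without Rheb1-/- myeloid array 3, wild-type myeloid array 2 or wild-type myeloid array 3, Prps2 did not pass (adjusted p = 0.0691, 0.0529 and 0.0674), nor did it as the mean of its probes (adjusted p = 0.0641). The wild-type arrays of Paics spanned a wider range than those of Ppat.

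At the branch to guanine nucleotides both IMP dehydrogenases rose. Impdh2, the isozyme known to be raised in proliferating cells, read 2.55, 2.68 and 2.73 in Rheb1-/- myeloid cells and 2.19, 1.93 and 1.48 in wild-type myeloid cells, a rise of 0.79 on the log2 scale (SE 0.16, adjusted p = 0.00473). Impdh1, at 1.97, 2.19 and 2.16 in Rheb1-/- and 1.76, 1.61 and 1.44 in wild-type myeloid cells, rose by 0.50 on the log2 scale (SE 0.10, adjusted p = 0.00464). Gmps, the GMP synthetase that follows them, differed by 0.38 and did not pass (adjusted p = 0.101); its Rheb1-/- arrays read -0.56, -0.59 and -0.27 and overlapped the wild-type arrays at -0.47, -0.95 and -1.15. Gmps did pass with slide as a random block (adjusted p = 0.0459) and without wild-type myeloid array 1. That block cannot tell genotype and slide apart in myeloid cells. At the branch to adenine nucleotides Adsl, which acts at separate steps of the pathway, rose by 0.70 on the log2 scale (SE 0.18, adjusted p = 0.0134); it did not pass without Rheb1-/- myeloid array 3 or without wild-type myeloid array 3 (adjusted p = 0.0502 and 0.0517). However, neither adenylosuccinate synthase passed. Adss read 1.98, 2.09 and 2.31 in Rheb1-/- myeloid cells against 2.39, 2.33 and 2.33 in wild-type myeloid cells, a difference of -0.22 (adjusted p = 0.0986), while its second probe differed by 0.24. Adssl1, the muscle-type isozyme, differed by 0.22 (adjusted p = 0.135). The middle steps Pfas, Atic and Gart rose by 0.50, 0.39 and 0.33 (adjusted p = 0.00933, 0.0463 and 0.0415). With normexp background correction the adjusted p-values of Atic and Gart were 0.0801 and 0.115, and both lost the call without any 1 array other than wild-type progenitor arrays 1 and 3 and wild-type myeloid array 1 (adjusted p up to 0.145 for Atic and 0.128 for Gart). Both also lost it without the filter on dim probes and on the 6 myeloid arrays alone. Atic lost it with the deposited value table too, and Gart with the replicate block. As the mean of its probes, 1 of which was above background on 8 of 14 arrays, Gart differed by -0.11.

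Both enzymes that supply one-carbon units from the cytosol rose. Shmt1, cytosolic serine hydroxymethyltransferase, read -2.29, -1.82 and -2.001 in Rheb1-/- myeloid cells and -2.77, -3.19 and -3.40 in wild-type myeloid cells, the largest rise of the 33 at 1.08 on the log2 scale (SE 0.18, adjusted p = 0.00185). That size depended on the probe and the background: it was 0.58 with normexp correction (adjusted p = 0.0138), and a second probe of Shmt1, also well above background on all 14 arrays, differed by -0.19. Mthfd1, the trifunctional folate enzyme, read 1.17, 1.31 and 1.46 against 0.92, 0.66 and 0.49 in wild-type myeloid cells and rose by 0.63 on the log2 scale (SE 0.14, adjusted p = 0.00661). Neither Hprt nor Aprt, the purine salvage enzymes, passed. Hprt, which recycles hypoxanthine and guanine, differed by 0.25 (95% interval 0.03 to 0.47, adjusted p = 0.0749) and Aprt, which recycles adenine, by 0.20 (95% interval -0.02 to 0.42, adjusted p = 0.135). Hprt did pass with quantile normalization, with the deposited value table and with slide as a random block (adjusted p = 0.0456, 0.0452 and 0.0303). The slide correlation estimated for that block was -0.119, and the block cannot tell genotype and slide apart in myeloid cells. The guanylate kinase Guk1 differed by -0.08 (95% interval -0.35 to 0.19, adjusted p = 0.634).

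Pyrimidine synthesis showed a contrast between the CTP synthases. Ctps read 1.76, 1.85 and 2.08 in Rheb1-/- myeloid cells and 0.86, 0.91 and 0.89 in wild-type myeloid cells, a rise of 1.01 on the log2 scale (SE 0.099, adjusted p = 0.000229), or 2.02-fold (probe at chr4:120212489-120212548 in mm9). Ctps2, its isozyme, read 4.28, 4.30 and 4.35 against 4.37, 4.40 and 4.22 in wild-type myeloid cells, overlapping arrays that differed by -0.02 (95% interval -0.19 to 0.15, adjusted p = 0.853). The 95% interval of Ctps (0.79 to 1.23) lay wholly above that of Ctps2. Cad, the fused enzyme of the opening steps, read 1.40, 1.43 and 1.47 in Rheb1-/- myeloid cells and 0.65, 0.59 and 0.34 in wild-type myeloid cells (probe at chr5:31380681-31380740 in mm9). It rose by 0.90 on the log2 scale (SE 0.10, adjusted p = 0.00036), and of its 3 other probes 2 differed by 0.88 and 0.69 and the dimmest by 0.17. Umps, the enzyme that forms UMP, read 2.15, 2.10 and 2.32 against 1.59, 1.48 and 1.27 in wild-type myeloid cells and rose by 0.75 on the log2 scale (SE 0.10, adjusted p = 0.000748). Dhodh, the mitochondrial step between them, rose by 0.42 on the log2 scale (SE 0.13, adjusted p = 0.0303), but did not pass with normexp correction (adjusted p = 0.0556) or without any 1 of 5 myeloid arrays, all but wild-type array 1 (adjusted p = 0.0576 to 0.104). Nor did Dhodh pass without the filter on dim probes. Uck2, the uridine-cytidine kinase of salvage, read 3.15, 3.14 and 3.06 in Rheb1-/- myeloid cells and 2.33, 2.08 and 1.97 in wild-type myeloid cells. It rose by 0.99 on the log2 scale (SE 0.10, adjusted p = 0.000286), and its second probe by 1.28.

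Nme1 and Nme2, the main nucleoside diphosphate kinases, phosphorylate the diphosphates of either family, and both rose. Nme1 read 1.65, 1.79 and 1.92 in Rheb1-/- myeloid cells and 1.24, 1.33 and 1.09 in wild-type myeloid cells, a rise of 0.57 on the log2 scale (SE 0.095, adjusted p = 0.00202). Nme2 read 5.70, 5.996 and 5.81 against 5.37, 5.46 and 5.26 in wild-type myeloid cells, a rise of 0.47 on the log2 scale (SE 0.10, adjusted p = 0.00642). For either kinase the genotypes did not overlap. Among the deoxynucleotide genes Rrm2, the small subunit of ribonucleotide reductase whose level follows S phase, read 3.27, 3.60 and 3.55 in Rheb1-/- myeloid cells and 2.42, 2.56 and 2.49 in wild-type myeloid cells, a rise of 0.98 on the log2 scale (SE 0.18, adjusted p = 0.00296). The large subunit Rrm1 rose by 0.55 on the log2 scale (SE 0.11, adjusted p = 0.00507); a second probe, not above background on any array, brought the mean of both to -0.11. Dtymk, the thymidylate kinase, read 2.54, 2.58 and 2.73 against 2.23, 1.64 and 1.60 in wild-type myeloid cells and rose by 0.79 on the log2 scale (SE 0.16, adjusted p = 0.0044). Tyms, thymidylate synthase, read 4.71, 4.93 and 4.99 in Rheb1-/- and 4.30, 4.18 and 3.98 in wild-type myeloid cells, a rise of 0.73 (adjusted p = 0.00182). Dut, which breaks down dUTP, read 4.02, 4.22 and 4.39 against 3.46, 3.63 and 3.40 in wild-type myeloid cells, a rise of 0.71 (adjusted p = 0.00125), and Tk1, the thymidine kinase of S phase, rose by 0.70 (adjusted p = 0.00528). Dck, deoxycytidine kinase, a salvage enzyme that cells keep outside S phase, stood apart at 3.23, 3.10 and 3.21 in Rheb1-/- myeloid cells against 3.35, 3.37 and 3.51 in wild-type myeloid cells. Every Rheb1-/- array of Dck lay below every wild-type array, but the difference of -0.23 did not pass (95% interval -0.48 to 0.02, adjusted p = 0.137). The 95% interval of Tk1, also a salvage enzyme, was 0.38 to 1.02 and did not overlap that of Dck.

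**Figure D2:**
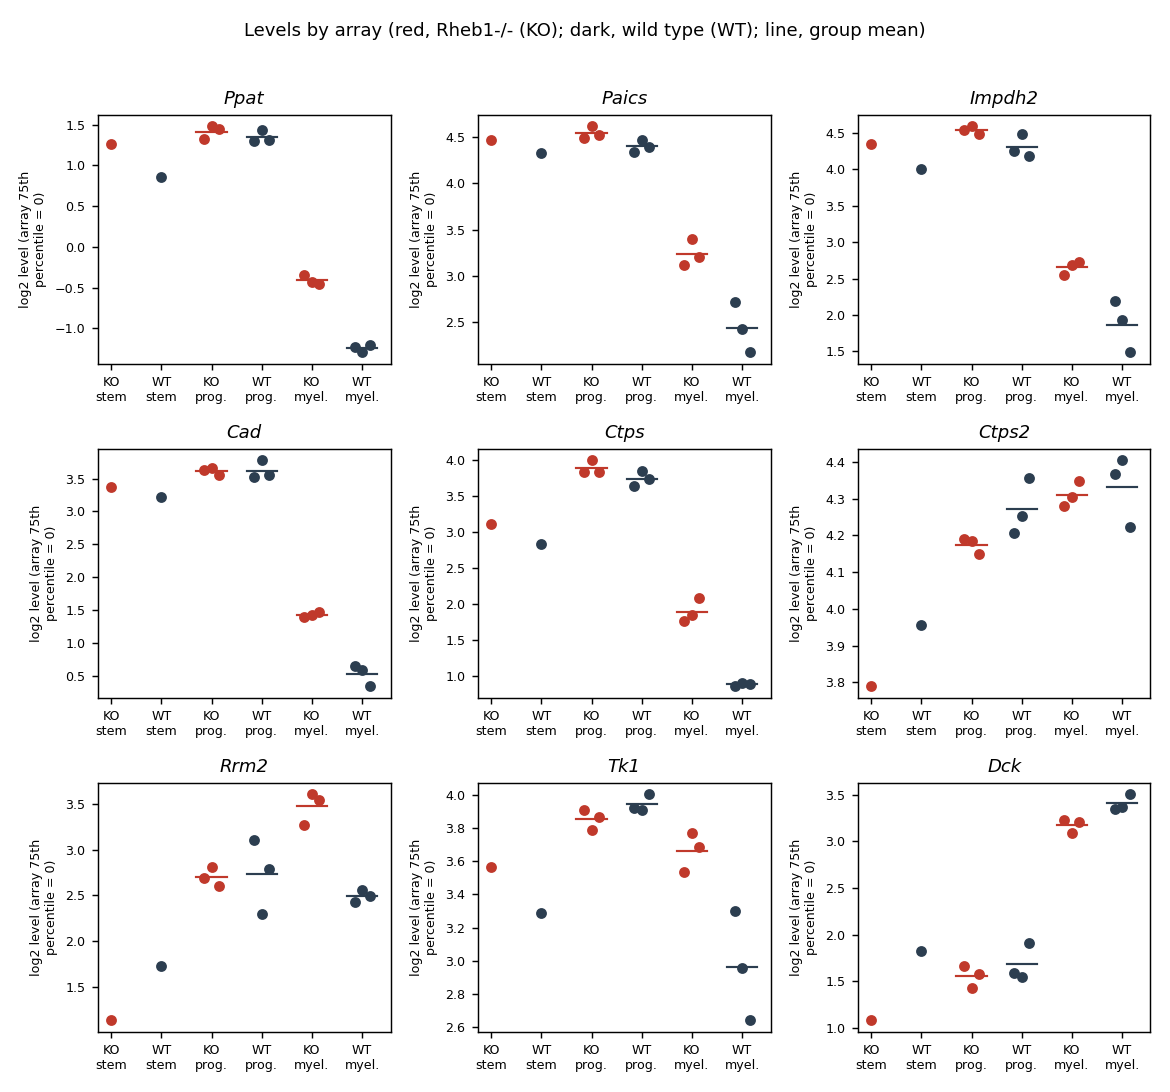
Log2 level, relative to the array's 75th percentile, of 9 genes on each array of Rheb1-/- (KO, red) and wild-type (WT, dark) stem cells, progenitors and myeloid cells; lines are means of 3 arrays, and each panel has its own axis. For Ppat, Paics, Impdh2, Cad, Ctps, Rrm2 and Tk1 all Rheb1-/- myeloid arrays lie above all wild-type myeloid arrays, while the Ctps2 arrays overlap and those of Dck lie lower.

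By the limma test the genotype difference in myeloid cells exceeded that in progenitors for 13 of the 33 genes and was lower than it for none. By the same adjusted threshold it was higher for 5.56% and lower for 5.32% of all genes tested. At an unadjusted p under 0.05, a looser threshold than that of these shares, 24 of the 33 were higher and 0 lower. The share of all genes at this looser threshold is not given here, so an excess at it cannot be judged. The 13 were Rrm2, Shmt1, Uck2, Cad, Ctps, Tk1, Ppat, Prps1, Dut, Umps, Impdh1, Rrm1 and Nme1. Cad is an example: its progenitor arrays read 3.63, 3.66 and 3.55 in Rheb1-/- and 3.52, 3.77 and 3.55 in wild type, overlapping sets, while its myeloid arrays separated as above, so that the genotype differences differed by 0.91 on the log2 scale (SE 0.14, adjusted p = 0.01). Those of Uck2 differed by 0.97 on the log2 scale (SE 0.15, adjusted p = 0.00936), of Ctps by 0.87 on the log2 scale (SE 0.14, adjusted p = 0.0101) and of Ppat by 0.77 on the log2 scale (SE 0.11, adjusted p = 0.00918). These 4 kept the call in all 21 alternative analyses of this contrast; the other 9 lost it in some. Rrm2 had the largest value, 1.01 on the log2 scale (SE 0.25, adjusted p = 0.0349), followed by Shmt1 at 1.003 (adjusted p = 0.035). The other values lay between 0.56 for Nme1 and 0.79 for Tk1. The second probe of Shmt1, well above background on all 14 arrays, differed by -0.19 in myeloid cells and by -0.07 in progenitors. With its probes averaged Shmt1 lost the call. Paics (0.66, adjusted p = 0.05002) and Tyms (0.59, adjusted p = 0.052) missed the threshold narrowly. The count rested on single arrays: it was 5 without Rheb1-/- progenitor array 1 and likewise without Rheb1-/- myeloid array 3, 6 without Rheb1-/- myeloid array 2 and likewise without wild-type myeloid array 3, 7 without Rheb1-/- progenitor array 3, and 8 without Rheb1-/- progenitor array 2 and likewise without wild-type progenitor array 2. The median over the 33 genes was 0.61, and between 0.50 and 0.67 with any one array left out. Without the filter on dim probes, which added genes to the test, 4 passed.

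Set against progenitors of the same genotype, myeloid cells had lower levels of nearly all of these genes. These contrasts use the same 12 arrays as those between genotypes, and the gap between a gene's 2 values equals the difference of genotype differences given above. In Rheb1-/- samples 28 were lower and 3 higher in myeloid cells, against 39% and 29.5% of all genes tested, with a median difference of -1.50; within slide 4, 3 myeloid arrays against 1 progenitor array, the median was -1.46. In wild-type samples 29 were lower and 2 higher, against 38.9% and 38.7% of all genes, with a median of -1.96; slide and cell type cannot be told apart there. The median over all genes tested was -0.10 in Rheb1-/- and 0.04 in wild-type samples, and with normexp correction -0.01 and 0.12. Of 25 proliferation genes 18 were lower and 3 higher in Rheb1-/- myeloid cells, with a median of -0.83. In wild-type samples 21 of them were lower and 0 higher, with a median of -1.57. The part of dividing cells and of other cell types in these falls was not tested. Cad fell by 2.18 in Rheb1-/- samples (adjusted p = 8.87e-08) and by 3.09 in wild-type samples (adjusted p = 9.77e-09). Uck2 fell by 2.08 in Rheb1-/- and 3.05 in wild-type samples (adjusted p = 1.13e-07 and 9.77e-09), Ctps by 1.99 and 2.86 (adjusted p = 1.12e-07 and 9.77e-09), and Shmt1 by 2.09 and 3.10 (adjusted p = 2.9e-06 and 1.16e-07). The second probe of Shmt1 differed less, by -0.97 in Rheb1-/- and by -0.85 in wild-type samples. In Rheb1-/- samples the difference was -2.07 for Mthfd1, -2.05 for Nme1, -1.82 for Ppat, -1.796 for Impdh1, -1.89 for Impdh2, -1.77 for Adsl, -1.96 for Dhodh and -1.88 for Pfas. In wild-type samples it was -2.70 for Mthfd1, -2.62 for Nme1, -2.59 for Ppat, -2.46 for Impdh1, -2.44 for Impdh2, -2.38 for Adsl, -2.25 for Dhodh and -2.28 for Pfas, with an adjusted p in either genotype of at most 8.99e-06. All 13 purine synthesis genes fell in both genotypes, the smallest falls being those of Adss (-0.48 in Rheb1-/-, -0.36 in wild type) and Adssl1 (-0.34 in Rheb1-/-, -0.52 in wild type). Adssl1 did not pass in Rheb1-/- samples without Rheb1-/- progenitor array 2 (adjusted p = 0.0509).

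A few genes did not fall. Dck was higher in myeloid cells than in progenitors in both genotypes: its progenitor arrays read 1.67, 1.43 and 1.58 in Rheb1-/- and 1.58, 1.55 and 1.91 in wild type, well below the myeloid values above, and it rose by 1.62 on the log2 scale (SE 0.11, adjusted p = 6.61e-07) in Rheb1-/- and 1.73 on the log2 scale (SE 0.11, adjusted p = 2.37e-07) in wild-type samples. Aprt rose by 0.46 and 0.34 (adjusted p = 0.00183 in Rheb1-/- and 0.0093 in wild type), but as the mean of its probes it differed by -0.01 in Rheb1-/- samples. Ctps2 passed in neither, with 0.14 in Rheb1-/- and 0.06 in wild-type samples. Rrm2 passed as higher in Rheb1-/- myeloid cells, with 3.27, 3.60 and 3.55 against 2.69, 2.81 and 2.60 in Rheb1-/- progenitors (0.77, SE 0.18, adjusted p = 0.00309), and did not pass in wild type, where myeloid cells read 2.42, 2.56 and 2.49 against 3.10, 2.30 and 2.79 in progenitors (-0.24, adjusted p = 0.246; -0.40 with normexp, adjusted p = 0.0297). Tk1 read 3.54, 3.77 and 3.68 in Rheb1-/- myeloid cells against 3.91, 3.79 and 3.87 in Rheb1-/- progenitors, a difference of -0.19 that did not pass (adjusted p = 0.264), and fell by 0.98 in wild-type samples (adjusted p = 0.000117). The other deoxynucleotide genes Tyms, Rrm1, Dut and Dtymk fell by between 0.39 and 1.23 in Rheb1-/- and between 0.98 and 1.89 in wild-type samples, beside medians of -1.55 and -2.21 for purine synthesis and -1.96 and -2.25 for pyrimidine synthesis. With all probes averaged, Tyms and Rrm1 differed by 0.20 and 0.0075 in Rheb1-/- samples and did not pass. Tyms also lost the call in Rheb1-/- samples with slide as a fixed block over 14 arrays (-0.34, adjusted p = 0.124) and without Rheb1-/- myeloid array 1 (adjusted p = 0.0551).

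**Figure D3:**
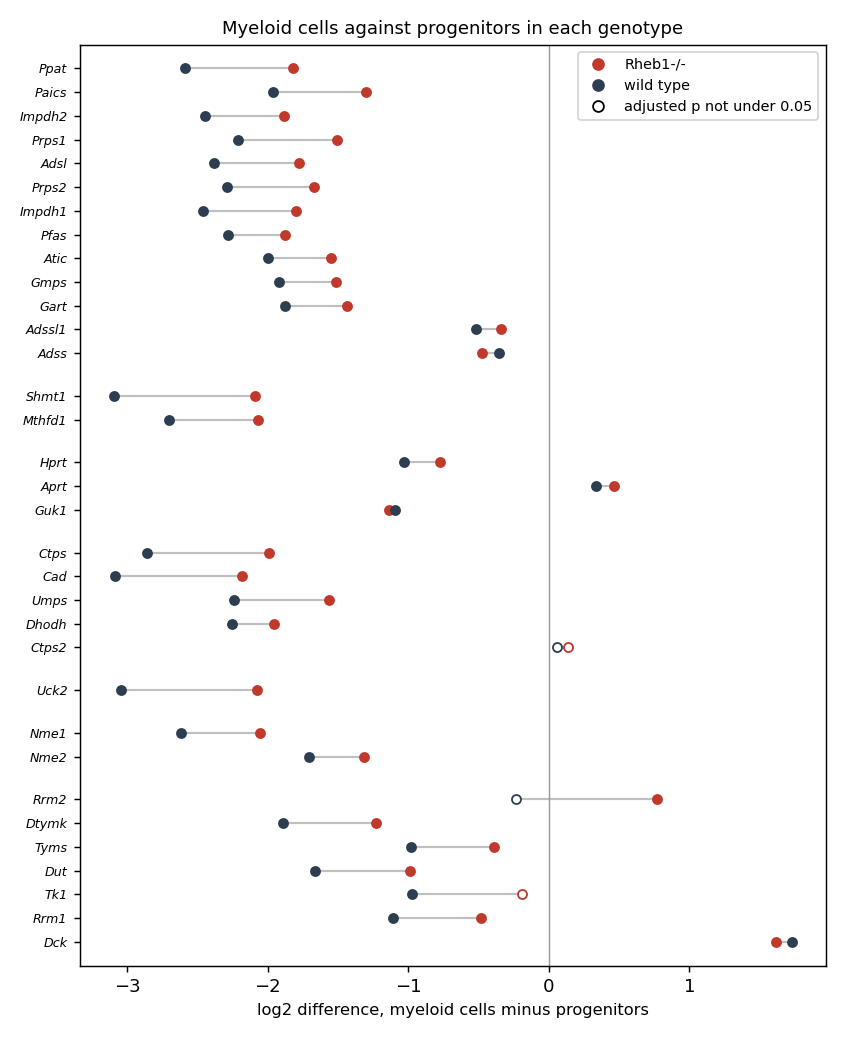
Log2 difference between myeloid cells and progenitors for each gene in Rheb1-/- (red) and wild-type (dark) samples, by synthesis step; open points have an adjusted p of 0.05 or more, and the grey line joins the genotypes. Most points lie left of 0 with the wild-type point further left, while Dck, Aprt and, with open points, Ctps2 lie to the right in both genotypes and Rrm2 in Rheb1-/- only.

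Other genes of the pathway were called in both directions in myeloid cells, where 16.5% of all genes tested were higher and 17.7% lower. Of 17 tested genes of folate and serine metabolism 11 were higher and 3 lower in Rheb1-/- samples. Slc19a1, the reduced folate carrier, averaged 1.19 ± 0.070 in Rheb1-/- and -0.31 ± 0.44 in wild-type myeloid cells (SD, n = 3 arrays each), a rise of 1.504 (adjusted p = 0.000497, limma). Phgdh, the entry to serine synthesis, rose by 1.04 (adjusted p = 0.000424), and Mthfs, which returns a folate to the pool, fell by 0.61 (adjusted p = 0.000424). Mthfd2, the mitochondrial enzyme named above, differed by -0.16 in myeloid cells (adjusted p = 0.22) and by -0.44 in progenitors (adjusted p = 0.103), neither of which passed. Of 23 genes that interconvert or break down purines 5 were higher and 4 lower, shares near those of all genes. Gmpr, the GMP reductase, rose by 1.10 (adjusted p = 0.000647), whereas Xdh, the xanthine dehydrogenase that makes urate, fell by 0.76 (adjusted p = 0.00282) and the adenylate kinase family member Ak3 by 0.53 (adjusted p = 0.00381). Of 15 tested genes that interconvert or break down pyrimidines 5 were higher and 2 lower, beside the same shares of all genes. Dctd, the dCMP deaminase, rose by 1.497 (adjusted p = 0.000229), with 2 of 3 wild-type arrays above background, and the kinases Nme4 and Nme6 by 1.31 and 0.87 (adjusted p = 0.000563 and 0.00121). The pentose phosphate genes that supply ribose gave 1 higher (Pgls, 0.37) and 2 lower (Tkt, -0.27, and Taldo1, -0.32) of 7. Nucleoside transporters gave 3 higher of 7, led by Slc25a36 at 0.74, and regulators of deoxynucleotide pools 1 higher (Dctpp1, 0.56) and 1 lower (Slfn1, -0.99) of 5.

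Among 12 regulators of the pathway 4 were higher and 1 lower in Rheb1-/- myeloid cells, beside 16.5% higher and 17.7% lower of all genes tested. Of the 12 differences 6 lay above 0 and 6 below, from -1.03 to 1.95, with a median of 0.009. Myc averaged 2.31 ± 0.32 in Rheb1-/- and 0.36 ± 0.060 in wild-type myeloid cells (SD, n = 3 arrays each), a rise of 1.95 (SE 0.17, adjusted p = 0.00018, limma). Rb1, which restrains E2F, rose by 0.50 (adjusted p = 0.00337) and Atf4 by 0.63 (adjusted p = 0.00362). In progenitors none of the 86 tested genes of these lists, counted by list, passed the limma test. At an unadjusted p under 0.05, 5 were higher and 6 lower, beside 12.1% of all genes in either direction. Myc differed in progenitors by 0.43 (adjusted p = 0.354) and Atf4 by -0.36 (adjusted p = 0.283).

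**Figure D4:**
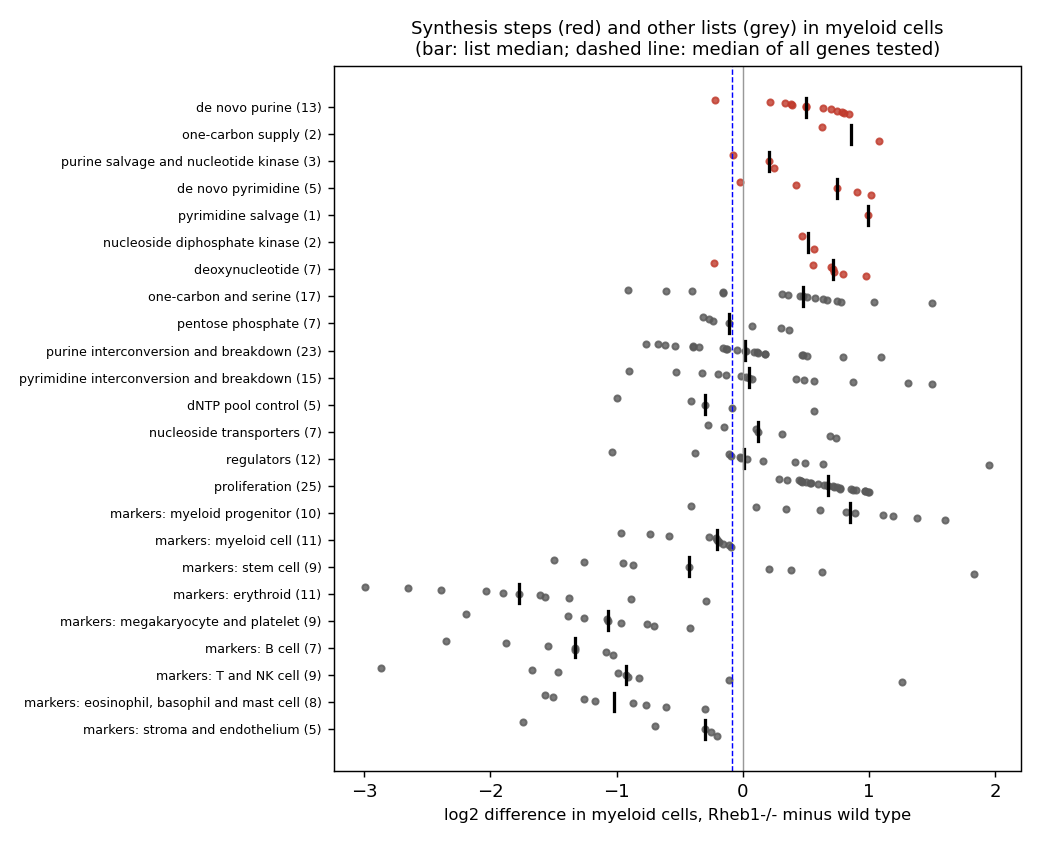
Log2 difference between Rheb1-/- and wild-type myeloid cells for the synthesis steps (red) and for other gene lists (grey); each point is a gene, the black bar is the list's median, the dashed line the median of all genes tested, and numbers in brackets count genes. The synthesis and salvage steps and the proliferation genes lie mostly right of 0, and the erythroid, megakaryocyte, B cell and T cell markers mostly left.

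Markers of dividing cells and of other cell types were also called in the same myeloid samples. Of all genes tested 16.5% were called higher and 17.7% lower there. Of 25 proliferation genes 21 were higher in Rheb1-/- myeloid cells and none lower, with a median of 0.68, beside 0.63 for the nucleotide genes. At an unadjusted p under 0.05, for which no share of all genes is given here, 25 were higher and 0 lower. Cdt1, a licensing factor of replication, rose by 0.97 and the helicase subunit Mcm6 by 0.89 (adjusted p = 0.000246 and 0.000468, limma). The summed level of the 25 proliferation genes, on the linear scale in units of the 75th percentile, was 469 to 556 in Rheb1-/- and 308 to 339 in wild-type myeloid cells. Of 10 myeloid progenitor markers 7 were higher and none lower (1 lower at an unadjusted p under 0.05), with a sum of 1112 to 1539 in Rheb1-/- and 673 to 817 in wild-type myeloid cells. Of 11 markers of mature myeloid cells 3 were lower, Csf1r, Mmp9 and Cxcr2, and the sum was 2822 to 3511 in Rheb1-/- against 3499.6 to 3844 in wild-type myeloid cells. Erythroid markers were lower for 9 of 11 (sum 100.3 to 437 in Rheb1-/-, 710.1 to 1145 in wild type) and megakaryocyte markers for 7 of 9 (sum 2.00 to 3.00 in Rheb1-/-, 4.10 to 6.52 in wild type). B cell markers were lower for 5 of 7 (sum 6.65 to 9.05 in Rheb1-/-, 11.96 to 24.03 in wild type), with Pax5 not above background on any array of either. T and NK cell markers were lower for 7 of 9 and higher for 1, Nkg7 (sum 40.1 to 57.8 in Rheb1-/-, 21.5 to 27.6 in wild type), with Cd3g not above background in Rheb1-/- samples. Eosinophil, basophil and mast cell markers were lower for 2 of 8 (sum 16.5 to 65.8 in Rheb1-/-, 37.2 to 96.4 in wild type), stroma and endothelium markers for 2 of 5 tested, and stem cell markers for 2 of 9 with 1 higher. For lists this small, 3 of 11, 2 of 8 and 2 of 9 lower lie near the share of all genes. The part of these cell types, and of the share of dividing cells, in the rise of the nucleotide genes was not tested. As a check of the labelled types, the summed myeloid progenitor markers stood at 1859.6 to 1883 in Rheb1-/- and 1623 to 1977 in wild-type progenitors. The summed stem cell markers were highest in the stem cell arrays (42.8 in Rheb1-/-, 37.3 in wild type). Some sums of other types differed between the stem cell arrays. Mature myeloid markers summed to 1310 in the wild-type and 665 in the Rheb1-/- stem cell array. In the same order erythroid markers summed to 102 and 30.3, and B cell markers to 63.5 and 23.2. Eosinophil, basophil and mast cell markers summed to 207 and 31.1. Myeloid progenitor markers (590 and 850) and T and NK cell markers went the other way. In progenitors the proliferation sums overlapped (692 to 711 in Rheb1-/-, 702 to 722 in wild type), and none of the 79 cell type markers tested, counted by list, passed. At an unadjusted p under 0.05, 1 marker was higher and 25 were lower, beside 12.1% of all genes in either direction.

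The stem cell samples, 1 array per genotype, allow no test. Their marker sums for other cell types differed as given above, and the part of those cells in the values below was not tested. None of the 33 genes differed by 2-fold or more, against 5.3% of 16654 genes that were at least 2-fold higher and 6.27% that were at least 2-fold lower in the Rheb1-/- array. The median difference was 0.16, beside 0.13 for all genes, with 21 genes above 0 and 12 below. The ends of the range were Shmt1, at 0.10 in the Rheb1-/- and -0.70 in the wild-type array, and Dck, at 1.08 in the Rheb1-/- and 1.82 in the wild-type array. Atic read 2.94 in the Rheb1-/- and 2.15 in the wild-type array, Rrm2 1.13 and 1.72, and Prps2 -0.48 and 0.09 in the same order. Most of the genes stood between the other cell types: in the Rheb1-/- stem cell array 30 of 33 lay below all Rheb1-/- progenitor arrays and 23 above all Rheb1-/- myeloid arrays, and in the wild-type array 31 lay below all wild-type progenitor arrays and 26 above all wild-type myeloid arrays. Ctps2, Adssl1, Rrm2, Dck and Aprt lay below all myeloid arrays in both genotypes. The wild-type stem cell array shared its slide with wild-type progenitor array 1 alone of these groups. Both were scanned on a different day from all other arrays, the Rheb1-/- stem cell array included.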

How the data were processed

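Per the labels' protocols, total RNA was amplified with Cy3 and put on Agilent mouse arrays of 1 colour, each holding 1 sample. Per the file headers, the scanner intensity files were made with Feature Extraction 10.7.3.1, whose processed signal is already background-corrected; the submitters' processing notes name version 9.1. The deposited value table holds log2 values that were quantile normalized by the authors, since its sorted columns differ by at most 0.00234; of its background treatment the sources used here say nothing, and it served as an alternative.

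Control spots and outlier spots were left out. The log2 processed signal minus the array's 75th percentile was averaged per probe. Each gene was represented by the probe of highest mean, and 17720 genes were tested with limma 3.58.1 in R 4.3.3 (lmFit and eBayes, 12 replicated arrays, 1 mean per group, 8 residual degrees of freedom, threshold 0.05, two-sided). Probes lie where the file headers' mm9 coordinates place them; exon and UTR positions were not analysed here. The methods were tested on simulated data with independent noise per gene. Those data held no slide effect and so cannot speak to slide and genotype in myeloid cells. Tried as alternatives were the deposited table, averaging all probes of a gene, normexp (offset 50), quantile scaling, other filters, replicate and slide blocks, single cell types or slides, and leaving out each array. The 33 genes, the other lists and the tests were chosen with earlier results of these data known, so p-values are given over all genes and none over a list. All 33 genes are accounted for by step; in other lists at most 3 called genes of smallest p are named, besides Mthfd2 and cell type markers. The labels do not say whether replicate numbers pair samples, and same-numbered samples' deviations correlated at -0.149 to 0.130. With 3 arrays a group these values cannot show whether samples were matched.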

Additional observations from a re-analysis of the deposited data

Results flagged for a closer look

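The genotype difference itself differed between myeloid cells and progenitors, by the interaction of the limma fit, for 13 of the 33 genes. Of all genes tested it was higher in myeloid cells for 5.56% and lower for 5.32% at the same adjusted threshold. Each value below is the difference in myeloid cells minus the difference in progenitors, on the log2 scale, and each was above 0. Among genes of the deoxynucleotide step it was 1.01 for Rrm2, 0.79 for Tk1, 0.68 for Dut and 0.63 for Rrm1. In pyrimidine synthesis and salvage it was 0.97 for Uck2, 0.91 for Cad, 0.87 for Ctps and 0.67 for Umps. In purine synthesis and its one-carbon supply it was 1.003 for Shmt1, 0.77 for Ppat, 0.71 for Prps1 and 0.67 for Impdh1. For the kinase Nme1 it was 0.56. The value of Shmt1 depended on the probe: its second probe differed between genotypes by -0.19 in myeloid cells and by -0.07 in progenitors. Adjusted p-values lay between 0.00918 for Ppat and 0.0383 for Tk1. Only Cad, Ctps, Ppat and Uck2 kept the call in all 21 alternative analyses. The count depended on single arrays and was 5 to 19 with 1 array left out. With 3 arrays a group, whether a single array stood apart was not tested.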

How the results depend on the processing

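In myeloid cells the number of the 33 genes called higher was 22 to 27 under the alternatives that kept every array, and 20 to 26 with 1 array left out; 1 was called lower with slide as a random block, and 0 to 1 with 1 array left out (Adss each time, in the second case without Rheb1-/- myeloid replicate 3). Progenitor calls over all genes, 13 as reported, numbered 27 with normexp, 7 without a filter, 4 with slide as a fixed block, 0 on slide 3 alone and 0 on the 6 progenitor arrays, and 6 to 85 with 1 array left out; they held 0 of the 33 genes each time. For the difference between genotype differences, calls over all genes (1927 as reported) numbered 786 without a filter and 904 to 2183 with 1 array left out, and calls among the 33 genes 4 without a filter, which tested more genes, and 5 to 19 with 1 array left out. The wild-type median of myeloid cells minus progenitors was -2.11 to -1.83 with 1 array left out. With a gene's probes averaged, the sign turned for Gart (-0.11) and Rrm1 (-0.11) between genotypes in myeloid cells, and for Tyms (0.20), Rrm1 (0.0075) and Aprt (-0.012) between Rheb1-/- myeloid cells and progenitors. Of the probes averaged, 1 of Gart and 1 of Rrm1 were dim. Between Rheb1-/- myeloid cells and progenitors the dimmest Tyms probe differed by 1.32 and the others by -0.39 and -0.32. The dimmer Aprt probe differed there by -0.49 and the brighter by 0.46. With the replicate block, whose numbers the labels do not tie to matched samples, 0 of the 33 genes were called in progenitors, 24 in myeloid cells and 9 for the difference between them. With slide as a random block the estimated slide correlation was -0.119. Calls over all genes in myeloid cells then numbered 7930, against 6070 as reported. That block cannot tell genotype and slide apart there. Analyses within slide 4 and with the probe of highest mean over all 14 arrays were chosen after seeing the data. Few arrays per group limit the precision; all 33 genes were well above background on every array.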
